A study of Homo sapiens with 4 samples.

Results

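Hydroxyurea alone was set against no treatment in HCT116, a human colorectal carcinoma cell line, across every gene for which a transcript cluster was named. Treated cells received 1 mM hydroxyurea for 24 h and untreated cells received nothing, with 1 GeneChip Human Gene 2.0 ST array for each condition. Of 53617 transcript clusters, which are the array's probe sets for one transcribed region, 16098 carried a gene symbol, and they covered 14884 genes. The comparison was made over the 7649 of these genes that were bright enough to be read, with a mean over all 4 arrays at or above an intensity of 90.5, which is the median of all named clusters. The series holds 4 arrays in all. The other arrays come from cells given 2 µM MS-275 together with 1 mM hydroxyurea, and from cells given 2 µM MS-275 alone, each for 24 h. MS-275 (entinostat) inhibits class I histone deacetylases. The MS-275/hydroxyurea and MS-275 arrays share no array with the main comparison, and their ratio is given beside it where it shows the same genes under hydroxyurea in other cells.

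Hydroxyurea quenches the tyrosyl radical of the small subunit of ribonucleotide reductase, the enzyme that makes deoxynucleotides (dNTPs). Replication forks then slow or stall, the kinase ATR and its effector CHK1 are activated at the exposed single-stranded DNA, and cells collect in S phase. ATM and p53 are activated as well, and HCT116 cells carry wild-type p53. The E2F transcription factors switch on the genes of G1/S transition and of replication, whereas a later program drives mitosis.

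With 1 array per condition no difference has a replicate check, no p-value can be given, and precision is limited by the number of arrays. Differences are ratios of deposited intensities, also given as log2 ratios of hydroxyurea over untreated, and 1.5-fold serves as a size for counting, not as a threshold of a test. A higher or lower intensity in a culture cannot be told apart from a larger or smaller share of cells that express the gene, such as cells in S phase. The hydroxyurea array had a median intensity of 46.0 over all clusters and the untreated array one of 47.0, and the upper quartiles were 132.1 with hydroxyurea and 129.8 without it. Epithelial markers marked both cultures. Of 10 such genes 8 had a named cluster and 6 passed the filter, and the 8 genes summed to 4858 with hydroxyurea and 4682 without it. The fibroblast markers DCN and LUM and the endothelial markers PECAM1, VWF and KDR all lay below the filter, at 6.37 to 41.9. CD68, which the haematopoietic list held as a marker, is also made by other cells and had intensities of 243 with hydroxyurea and 177 in untreated cells.

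The promoters of a pair of genes that were higher with hydroxyurea and of a mitotic gene that was not are shown here because genes of both programs are compared in the results. The windows run from 250 bases before to 50 bases after the start of the gene and were taken from RefSeq, build GRCh38.p14. In CDC25A, the gene of a phosphatase that activates CDK2 (chr3:48188368-48188667, minus strand), and in the E2F family gene E2F2 (chr1:23531184-23531483, minus strand), capitals mark a match to the E2F motif. In the gene of the mitotic kinase PLK1 (chr16:23678639-23678938, plus strand), they mark the cell cycle genes homology region (CHR), through which mitotic genes are held down outside G2 and M phase.
CDC25A: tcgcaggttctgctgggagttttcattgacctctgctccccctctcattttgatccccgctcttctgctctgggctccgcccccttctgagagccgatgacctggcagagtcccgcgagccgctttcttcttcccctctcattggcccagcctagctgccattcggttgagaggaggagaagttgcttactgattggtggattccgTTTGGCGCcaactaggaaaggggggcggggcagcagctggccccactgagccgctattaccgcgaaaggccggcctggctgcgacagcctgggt
E2F2: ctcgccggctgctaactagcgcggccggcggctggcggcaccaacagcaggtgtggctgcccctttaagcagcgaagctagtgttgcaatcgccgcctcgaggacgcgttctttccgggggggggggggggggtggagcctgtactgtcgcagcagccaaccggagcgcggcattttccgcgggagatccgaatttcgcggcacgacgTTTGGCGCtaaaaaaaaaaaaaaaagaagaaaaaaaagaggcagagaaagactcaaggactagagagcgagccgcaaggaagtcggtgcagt
PLK1: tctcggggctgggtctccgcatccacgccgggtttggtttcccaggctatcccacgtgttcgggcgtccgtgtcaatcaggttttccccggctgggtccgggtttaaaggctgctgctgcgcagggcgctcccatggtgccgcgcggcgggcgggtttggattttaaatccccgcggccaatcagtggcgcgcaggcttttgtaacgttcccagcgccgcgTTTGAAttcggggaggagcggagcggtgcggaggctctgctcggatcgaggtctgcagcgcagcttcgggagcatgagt
The match begins at position -44 of the CDC25A window, at -42 of the E2F2 window and at -29 of the PLK1 window, counted from the start of the gene. Only windows with a match are printed, and not every gene of these programs has a match. The window of E2F7, also higher with hydroxyurea, held no E2F match. Those of the mitotic genes AURKB and KIF2C held no CHR match.

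Hydroxyurea was accompanied by more genes with a higher than with a lower intensity. Counted at 1.5-fold, 239 genes (3.12%) were higher than in untreated cells and 97 (1.27%) were lower. These shares are the background for the counts in each list below. At 2-fold the counts were 43 higher and 5 lower, the lower ones being DPH6, MKX, SOX4, SBF2 and the non-coding FAM86B2-DT, which was named after its value was seen. The median log2 ratio over all 7649 genes was 0.01, and the central 90% of them lay between -0.40 and 0.49. Single genes therefore reached further upwards than downwards.

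**Figure D1:**
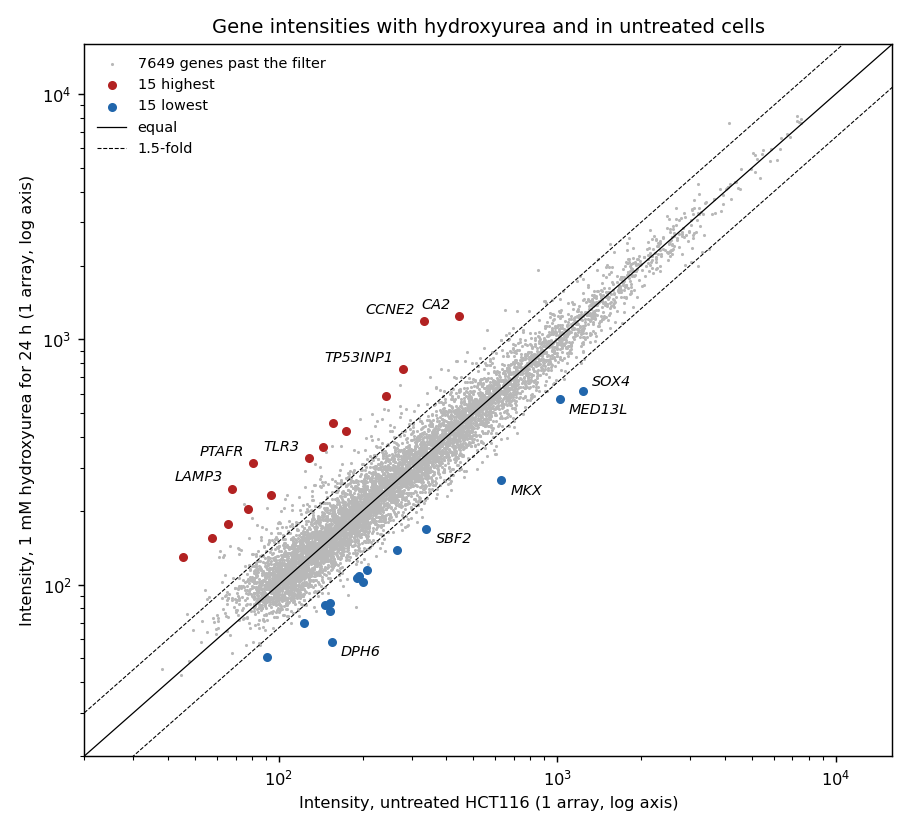
Each point is 1 of 7649 genes, with its intensity after 1 mM hydroxyurea for 24 h on the vertical axis and in untreated HCT116 cells on the horizontal axis, both logarithmic, 1 array each. The solid line marks equal intensity and the dashed lines 1.5-fold. The 15 highest genes that the naming rule admits (red) lie 2.42-fold to 3.87-fold above untreated cells and the 15 lowest (blue) 1.77 to 2.64 times below.

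The highest gene was PTAFR, which encodes the receptor for platelet-activating factor. Its intensity was 314 with hydroxyurea and 81.0 in untreated cells, a 3.87-fold difference. LAMP3, a lysosomal membrane protein gene, had 246 with hydroxyurea and 68.0 in untreated cells (3.63-fold). The cyclin E2 gene CCNE2, whose product drives entry into S phase with CDK2, had 1183 with hydroxyurea and 333 in untreated cells (3.55-fold). CA2, the gene of a carbonic anhydrase found in colonocytes, was 2.80-fold higher, at 1245 with hydroxyurea and 445 in untreated cells. The transcription factor gene SNAI2, a regulator of epithelial-mesenchymal transition, was 2.70-fold higher and the matrix gene THBS1 (thrombospondin 1) 2.64-fold higher. TLR3, a sensor of double-stranded RNA, had 328 with hydroxyurea and 128 in untreated cells (2.56-fold). The 15 highest genes also held GSTT2 (2.92-fold), a glutathione transferase locus that RefSeq lists as a transcribed pseudogene. Further members were the non-coding GAS6-DT (2.86-fold), the p53 target TP53INP1 (2.72-fold), MANSC4 (2.69-fold) and the glycosyltransferase gene GALNT5 (2.54-fold). CRISPLD2 (2.47-fold), POPDC1 (2.44-fold) and the carboxypeptidase gene CPA4 (2.42-fold) completed the group. GSTT2 has a near-identical copy, GSTT2B, so its signal may be shared. In untreated cells 6 of the 15 lay below the intensity of the filter, where ratios are compressed and uncertain.

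Of these 15 genes, 14 were also higher in MS-275/hydroxyurea than in MS-275 cells, 10 of them by at least 1.5-fold. The background in that pair of arrays was 4.84% of genes at least 1.5-fold higher and 1.03% lower. GALNT5 was the exception, with 139.7 in MS-275/hydroxyurea and 141 in MS-275 cells. CPA4 was nearly as flat there, at 411 in MS-275/hydroxyurea and 392 in MS-275 cells. Over all 239 higher genes, 104 (43.5%) passed 1.5-fold in the same direction in the presence of MS-275. The median log2 ratio over all 239 genes was 0.51 with MS-275 and 0.73 without it. The genes were chosen by their ratio without MS-275, which raises that median, so its larger size shows no weaker response with MS-275.

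Among the lower genes, DPH6, a gene of diphthamide synthesis, had the largest difference, with 58.6 with hydroxyurea and 155 in untreated cells (2.64 times lower). The homeobox gene MKX was 2.37 times lower, at 266 with hydroxyurea and 630.3 in untreated cells, but in the presence of MS-275 it was dim and nearly equal, at 120.1 in MS-275/hydroxyurea and 124 in MS-275 cells. SOX4, a transcription factor gene of progenitor cells and the brightest of these genes, had 614 with hydroxyurea and 1237 in untreated cells (2.01 times lower). The others in this group of 15 differed by less than those. They were SBF2 (2.01 times lower), FBXO36, GPR52, the SNARE gene STX8 (1.93 times), CLYBL, the Mediator gene MED13L (1.80 times), QTMAN, DPH5, PRR4, PYROXD1 and NUBPL, together with POU5F1P3, a pseudogene that may pick up signal of POU5F1. The rule for names leaves out FAM symbols and -IT transcripts, and with them FAM86B2-DT (log2 ratio -1.22) and SND1-IT1 (-0.97, named after its value was seen), which lay among the 15 lowest of all genes. All 15 named genes were also lower in MS-275/hydroxyurea than in MS-275 cells, 6 of them by at least 1.5-fold. Of the 97 lower genes, 21 (21.6%) passed 1.5-fold downwards in the presence of MS-275 and 1 passed it upwards.

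Targets of p53 in cell cycle arrest had the highest median of the lists examined. The 3 lists of p53 targets had 64 genes, of which 35 had a named cluster and 31 passed the filter. At or past 1.5-fold, 16 of the 31 (51.6%) were higher and 0 lower, beside 3.12% and 1.27% of all genes. Their median log2 ratio was 0.67, and 30 of 31 lay above 0. CDKN1A, MDM2, BTG2 and FAS, which are familiar members of this group, had no named cluster and are not analysed here.

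**Figure D2:**
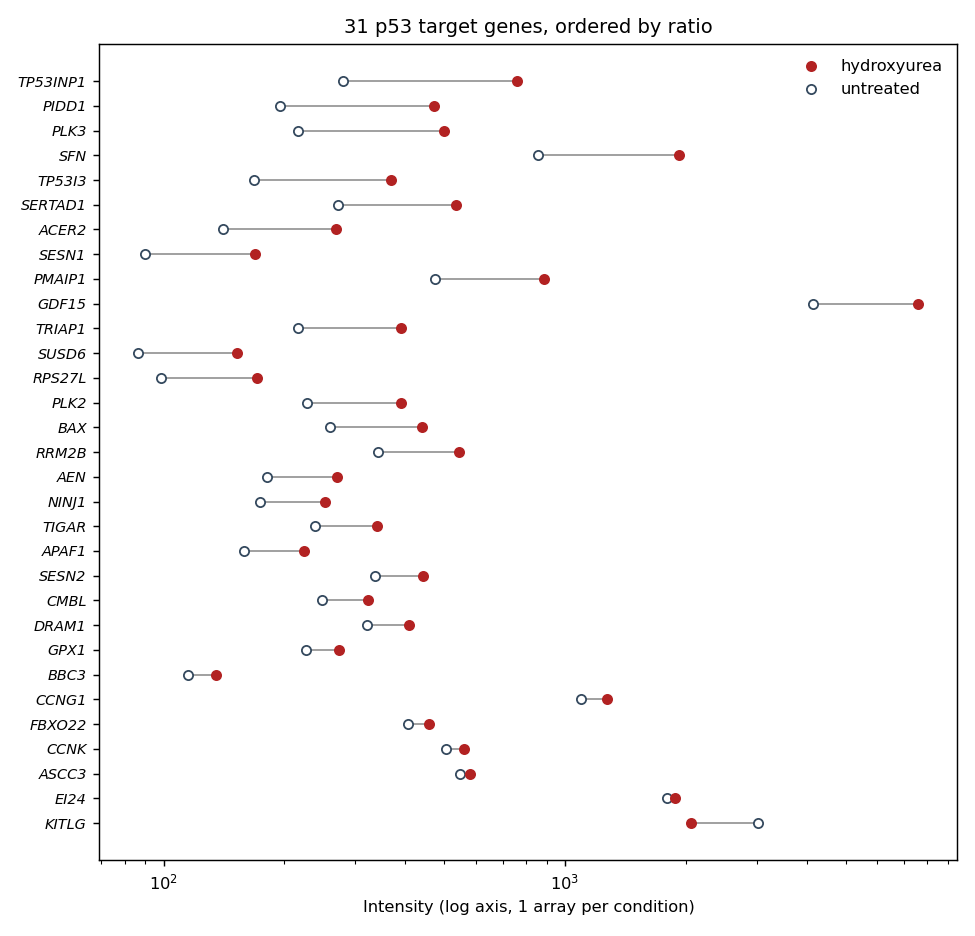
Intensity of 31 p53 target genes with hydroxyurea (filled) and in untreated cells (open), 1 array each, on a logarithmic axis and ordered by their ratio. TP53INP1 at the top is 2.72-fold higher with hydroxyurea, and KITLG at the bottom is the only gene with a lower intensity.

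Genes of cell cycle arrest had a median log2 ratio of 0.85, with 6 of 9 at least 1.5-fold higher. TP53INP1, a stress protein gene that aids p53 in arrest and death, had 758 with hydroxyurea and 279 in untreated cells (2.72-fold). The kinase gene PLK3 had 498 with hydroxyurea and 216 in untreated cells (2.30-fold). SFN encodes 14-3-3σ, which keeps the mitotic kinase complex in the cytoplasm, and it had 1918 with hydroxyurea and 855 in untreated cells (2.24-fold). Beside these stood the sestrin gene SESN1 (1.88-fold), TRIAP1 (1.80-fold) and PLK2 (1.72-fold). SESN2, CCNG1 and CCNK were at 1.32-fold, 1.16-fold and 1.11-fold.

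The genes of apoptosis showed a split within the list, with 4 of 8 at least 1.5-fold higher and a median of 0.68. PIDD1, whose product assembles the caspase-2 platform, had 472 with hydroxyurea and 195 in untreated cells (2.42-fold). The quinone oxidoreductase gene TP53I3 had 368 with hydroxyurea and 168 in untreated cells (2.19-fold). PMAIP1 encodes NOXA, which neutralises MCL1, and had 885 with hydroxyurea and 474 in untreated cells (1.87-fold). BAX, the pore-forming effector of the mitochondrial pathway, was 1.70-fold higher. In contrast BBC3, which encodes PUMA, was at 1.17-fold, with 135 with hydroxyurea and 115 in untreated cells. The nuclease gene AEN, the apoptosome gene APAF1 and EI24 were also within 1.5-fold, with log2 ratios of 0.58, 0.50 and 0.06. Of the wider BCL2 family, 3 of 12 genes were at least 1.5-fold higher and 0 lower, with a median of 0.31. Next to PMAIP1 and BAX this was BCL2L11, the gene of the BH3-only protein BIM, at 254 with hydroxyurea and 135 in untreated cells (1.88-fold). The anti-apoptotic genes BCL2 (1.33-fold), BCL2L1 (1.29-fold) and MCL1 (1.04-fold) did not reach 1.5-fold. In the list of caspases and their inhibitors 5 genes passed the filter, namely BIRC2, CFLAR, TRADD, FADD and ENDOG, and 0 of the 5 reached 1.5-fold. None of them is a caspase gene, and no caspase gene of that list had a named cluster.

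The third p53 list, of repair, metabolism and secreted proteins, had 6 of 14 genes at least 1.5-fold higher and a median of 0.53. GDF15, a secreted stress cytokine and by far the brightest of the p53 targets, had 7596 with hydroxyurea and 4142 in untreated cells (1.83-fold). SERTAD1 (1.96-fold), the ceramidase gene ACER2 (1.91-fold), SUSD6 (1.76-fold), RPS27L (1.73-fold) and the ribonucleotide reductase gene RRM2B (1.60-fold) made up the rest. TIGAR (1.43-fold), NINJ1 (1.45-fold), CMBL (1.30-fold), DRAM1 (1.27-fold), GPX1 (1.21-fold), FBXO22 (1.13-fold) and ASCC3 (1.06-fold) were within 1.5-fold. KITLG, which encodes stem cell factor, went the other way, with 2065 with hydroxyurea and 3017 in untreated cells (1.46 times lower).

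In the presence of MS-275 the p53 targets had a smaller median ratio. Between MS-275/hydroxyurea and MS-275 cells, PLK3, SESN2 and PMAIP1 (3 of 31) were at least 1.5-fold higher and KITLG (1 of 31) was lower, with a median of 0.37, and 28 of 31 lay above 0. PMAIP1 differed by the same amount in both pairs, at 1.87-fold with MS-275, whereas TP53I3 was at 1.08-fold (144 in MS-275/hydroxyurea and 133 in MS-275 cells). The ratio with MS-275 is taken over MS-275 cells, where TP53INP1 (755) and ACER2 (235) lay above untreated cells (279 and 141). With both drugs they had 1013 and 317, beside 758 and 269 with hydroxyurea alone. Some genes went the other way, such as SFN, at 639 in MS-275 and 855 in untreated cells. SFN had 788 with both drugs. A smaller ratio in this pair is therefore not by itself a lower intensity. Whether the ratios of the pairs differ beyond the spread of cultures was not tested.

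A small RNA that lies within a p53 target was among the most different features. MIR3189, named after its values were seen, had 214 with hydroxyurea and 74.7 in untreated cells (2.86-fold), and 148 in MS-275/hydroxyurea and 96.9 in MS-275 cells (1.53-fold). Its hairpin lies inside GDF15 on chromosome 19 (RefSeq, GRCh38.p14), and whether the cluster measured the miRNA precursor or the GDF15 transcript was not tested. Its mature products are printed with the seed, bases 2 to 8, in capitals.
hsa-miR-3189-5p (chr19:18386570-18386594, plus strand): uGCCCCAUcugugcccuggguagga
hsa-miR-3189-3p (chr19:18386607-18386627, plus strand): cCCUUGGGucugaugggguag
MIR612, inside the long non-coding RNA gene NEAT1 on chromosome 11 and likewise named after its values were seen, had 301 with hydroxyurea and 140.4 in untreated cells (2.14-fold). It was not higher in the presence of MS-275, at 323 in MS-275/hydroxyurea and 434 in MS-275 cells. Of 188 miRNA genes past the filter, 3 were at least 1.5-fold higher (MIR3189, MIR612 and MIR3916) and 8 at least 1.5-fold lower, with a median log2 ratio of -0.05. Over all genes, 3.12% were higher and 1.27% lower.

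Of the genes that make dNTPs, both small subunit genes of ribonucleotide reductase were at least 1.5-fold higher. RRM2, the small subunit of S phase cells and the target of hydroxyurea, had 1407 with hydroxyurea and 911 in untreated cells. RRM2B, the small subunit that p53 induces, had 545 with hydroxyurea and 341 in untreated cells. The large subunit gene RRM1 stayed within 1.5-fold and had 1200.0 with hydroxyurea and 859 in untreated cells, a log2 ratio of 0.48 beside 0.63 for RRM2 and 0.67 for RRM2B. The deoxycytidine kinase gene DCK, of the salvage pathway, followed at 0.35. The thymidylate synthase gene TYMS (1562 with hydroxyurea and 1523 in untreated cells), DTYMK and DGUOK had log2 ratios of 0.04, 0.04 and -0.07. The list of 8 genes had 2 at least 1.5-fold higher, 0 lower and a median of 0.26. Of the genes that break dNTPs down, SAMHD1 had 581 with hydroxyurea and 442 in untreated cells, and DCTPP1 had 2029.6 with hydroxyurea and 1999.7 in untreated cells.

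Part of the genes of G1/S control were higher too. Of 19 cyclin, CDK and E2F genes, 6 were at least 1.5-fold higher and 0 lower, with a median log2 ratio of 0.46. Besides CCNE2 these were E2F7 (1088 with hydroxyurea and 558 in untreated cells, 1.95-fold), CDC25A (499.9 with hydroxyurea and 274 in untreated cells, 1.82-fold), E2F2 (1.76-fold), E2F8 (1.64-fold) and MYBL2 (log2 ratio 0.59, at the border). E2F7 and E2F8 encode repressors of the family and E2F2 an activator. The other activator genes, E2F1 (1.41-fold) and E2F3 (1.35-fold), stayed within 1.5-fold. The cyclin D1 gene CCND1, which acts earlier in G1, had 1332 with hydroxyurea and 1326 in untreated cells, and the pocket protein gene RBL1 had 264 with hydroxyurea and 265 in untreated cells. The related RBL2 was the lowest of the list, with 155 with hydroxyurea and 207 in untreated cells. MYBL2, E2F1, E2F3 and RBL2 were named after their values were seen.

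**Figure D3:**
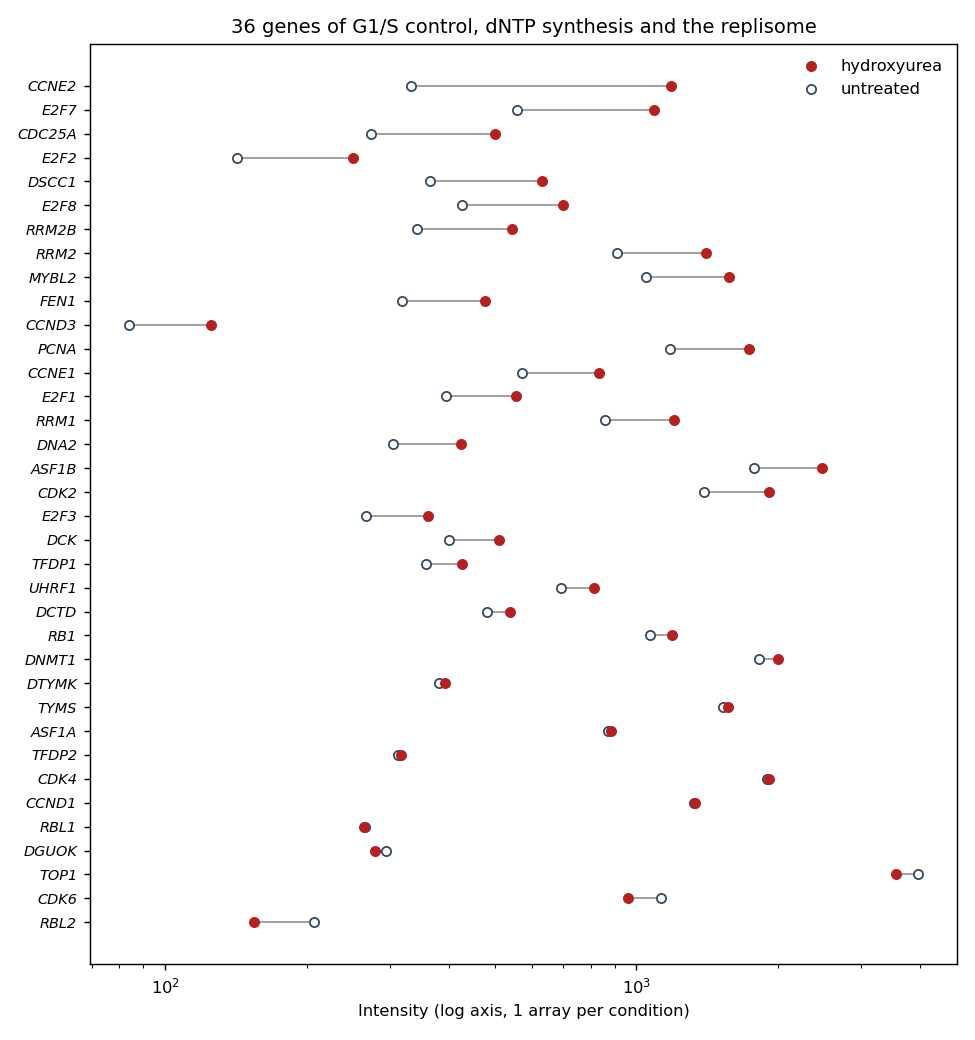
Intensity of 36 genes of G1/S control, dNTP synthesis and the replisome with hydroxyurea (filled) and in untreated cells (open), 1 array each, on a logarithmic axis and ordered by their ratio. CCNE2 stands apart at 3.55-fold, a block of genes from E2F7 to DCK lies above untreated cells, and RBL2 is the lowest.

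Fewer genes of the replication machinery passed 1.5-fold. Of 9 replisome genes 1 was at least 1.5-fold higher, with a median of 0.48. This was DSCC1, which encodes a subunit of an alternative clamp loader, at 632 with hydroxyurea and 365 in untreated cells (1.73-fold). The flap endonuclease gene FEN1, the sliding clamp gene PCNA, the nuclease and helicase gene DNA2 and the histone chaperone gene ASF1B stayed within 1.5-fold, with log2 ratios of 0.58, 0.56, 0.48 and 0.48. Of 23 genes that load and activate the replicative helicase, only CDC6 reached 1.5-fold, with 1817 with hydroxyurea and 1209 in untreated cells (log2 ratio 0.59), and the median was 0.26. GINS4, DONSON and CDC45 followed at 0.58, 0.52 and 0.50, and the helicase subunit gene MCM7 was at -0.05.

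Over the G1/S, helicase loading and replisome lists together, 8 of 51 genes (15.7%) were at least 1.5-fold higher with hydroxyurea and 0 lower. Of all genes 3.12% were higher and 1.27% lower. In these lists 43 of 51 genes lay above 0. With MS-275 present, 29 of 51 were higher and 1 lower (the G1 kinase gene CDK6), beside 4.84% and 1.03% of all genes. The median log2 ratio of the lists with MS-275 was 0.69 in place of 0.35. That ratio is taken over MS-275 cells, where CCNE2 (171), CDC6 (755) and PCNA (746) lay below untreated cells (333, 1209 and 1177). With both drugs they had 739, 1826 and 1566, beside 1183, 1817 and 1736 with hydroxyurea alone. Some genes went the other way, such as GINS4, at 238 in MS-275 and 221 in untreated cells. A larger ratio in this pair is therefore not by itself a higher intensity. The p53 targets had their larger median without MS-275 and the genes of these lists with it, and neither difference was tested.

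The E2F motif was more frequent in the promoters of these genes than elsewhere, yet genes with the motif did not as a whole stand apart. The letters searched on both strands were TTTCGCGC, TTTCCCGC, TTTGGCGC and TTTGCCGC, and 6108 of the 7649 genes had a promoter window. The motif was found in 353 of them (5.78%), and in 20 of 40 genes (50%) of the G1/S, helicase loading and replisome lists. The 20 genes with the motif had a median log2 ratio of 0.26 and those without it one of 0.17. Among all 353 genes with the motif, 10 (2.83%) were at least 1.5-fold higher, a share near the 3.12% of all genes, and the median was 0.03. The same 353 genes had 12.7% at least 1.5-fold higher between MS-275/hydroxyurea and MS-275 cells, beside 4.84% of all genes. A p53 half-site, searched by its consensus, was in 311 windows (5.09%), and in 5 of 26 windows of p53 targets. The p53 targets with the half-site had a median log2 ratio of 0.58 and those without it one of 0.82. Over all windows the medians were 0.003 with it and 0.010 without it. A match describes the letters in the window and is no evidence of a bound factor.

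Genes of mitosis lay on balance close to no change. Of 44 genes of G2/M, only MASTL passed 1.5-fold upwards and 0 passed it downwards, beside 3.12% and 1.27% of all genes. The median log2 ratio was 0.04. MASTL, which encodes the kinase that holds PP2A in check during mitosis, had 1302 with hydroxyurea and 795 in untreated cells (1.64-fold). PLK1 lay at the other end, with 2011 with hydroxyurea and 2883 in untreated cells (1.43 times lower). CDK1 (1.39-fold), AURKB (1.34-fold) and FBXO5 (1.34-fold) were higher by less than 1.5-fold, and the kinesin gene KIF2C was at 1.01-fold. The CHR, searched as TTTGAA and TTCGAA on both strands, was in 29 of 40 windows (72.5%) of these genes and in 11.1% of all windows. The 29 genes with it had a median log2 ratio of 0.06 and the other 11 one of 0.03. With MS-275 present, 22 of the 44 mitotic genes were at least 1.5-fold higher, beside 4.84% of all genes, and the median was 0.59. This ratio too is taken over MS-275 cells, where MASTL had 439 and CDK1 had 308, beside 795 and 498 in untreated cells.

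The genes of the fork checkpoint itself were little different at the mRNA level, although this is the pathway that hydroxyurea engages at the protein level. Of 20 genes, 0 passed 1.5-fold in either direction, and the median was 0.02. Over all genes 3.12% were higher and 1.27% lower, so a count of 0 in 20 lies near the background. The largest differences ran in both directions. RAD17, which loads the 9-1-1 clamp, had 238 with hydroxyurea and 345 in untreated cells (1.45 times lower), and ATR had 147 with hydroxyurea and 195 in untreated cells (1.33 times lower). The CHK1 adaptor gene CLSPN (1.37-fold), the clamp subunit gene RAD1 (1.34-fold) and MRE11 (1.28-fold) were higher by less than 1.5-fold. CHEK1 was at 1.02-fold, WEE1 at 1.01-fold, RAD50 at 0.782-fold and TP53BP1 at 0.839-fold.

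By their medians, repair genes divided by pathway. In homologous recombination, which restarts broken forks, 4 of 14 genes were at least 1.5-fold higher, 0 were lower and the median was 0.34. EXO1, a nuclease that resects DNA ends, had 747 with hydroxyurea and 406 in untreated cells (1.84-fold). Among the others were RAD54L (1.51-fold), the gene of a DNA translocase, and EME1 (log2 ratio 0.59), whose product partners the nuclease MUS81. PALB2 and RAD52 were at 0.993-fold and 0.986-fold. Of 6 Fanconi anaemia genes, 0 passed 1.5-fold but the median was 0.31, with FAAP24 at 1.39-fold and USP1 at 1.33-fold. Mismatch repair (5 genes), base excision repair (12 genes) and end joining with translesion synthesis (8 genes) had medians of -0.01, -0.03 and -0.12. In these short lists 0 genes passed 1.5-fold, which lies near the 3.12% higher and 1.27% lower over all genes. The lowest gene of these lists was POLI, a translesion polymerase gene, with 249 with hydroxyurea and 335 in untreated cells (1.35 times lower). Nucleotide excision repair was not examined, since the excision repair list held none of its genes with a named cluster.

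**Figure D4:**
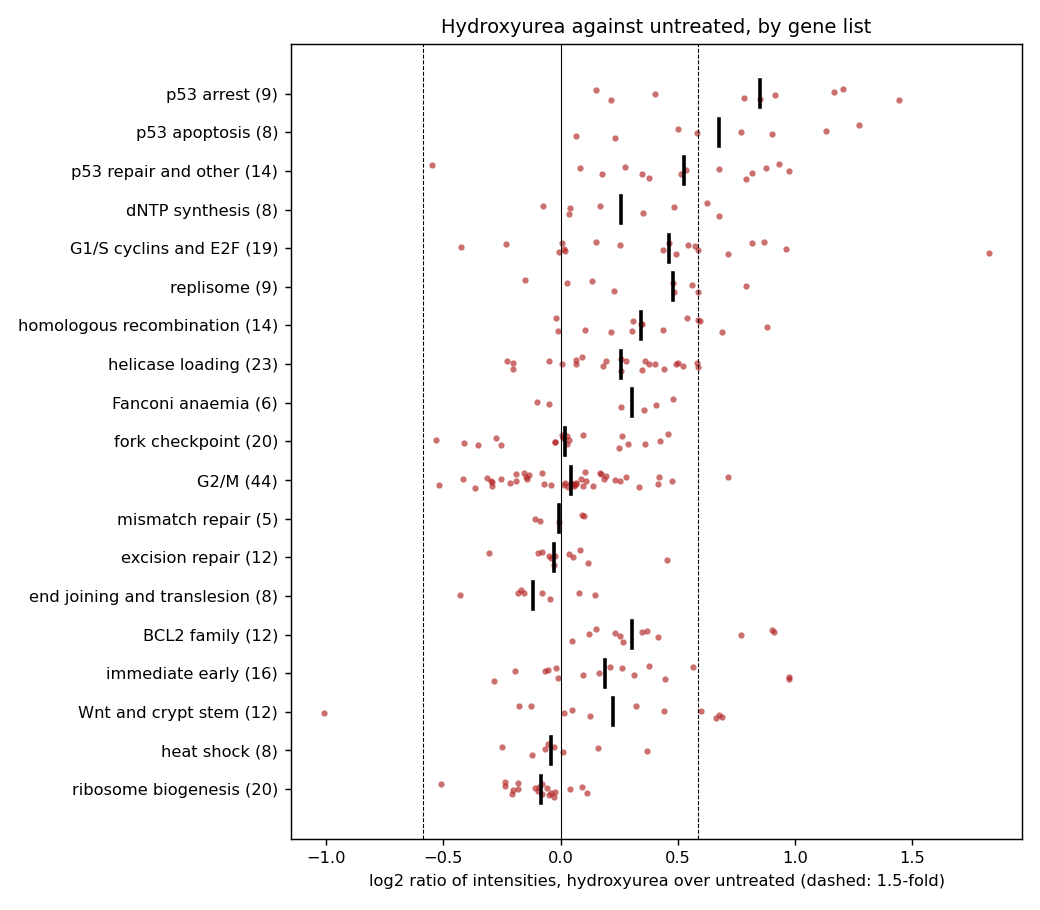
Log2 ratio of intensities, hydroxyurea over untreated, for each gene past the filter in 19 lists (points, spread vertically at random) with the list median (bar) and the number of genes in brackets. Dashed lines mark 1.5-fold. Medians fall in the order of p53 arrest (0.85), p53 apoptosis (0.68) and the third p53 list (0.53), and those of fork checkpoint (0.02) and G2/M (0.04) lie near 0.

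Stress and signalling genes contributed single members rather than whole groups. Over all genes 3.12% were at least 1.5-fold higher and 1.27% lower. These lists are too short to set a count of 1 apart from that share. Of 16 immediate early genes, JUN (154 with hydroxyurea and 78.4 in untreated cells, 1.97-fold) and ATF3 (140.4 with hydroxyurea and 71.5 in untreated cells, 1.97-fold) were at least 1.5-fold higher, FOS was at 0.986-fold, and the median was 0.19. In the presence of MS-275 JUN was nearly flat, at 204 in MS-275/hydroxyurea and 208 in MS-275 cells. The phosphatase gene DUSP14 (1.98-fold) was the only one of 14 MAPK feedback genes past 1.5-fold, and their median was 0.13. Among 12 growth factor genes, HBEGF, a ligand of the EGF receptor, had 205 with hydroxyurea and 104 in untreated cells (1.97-fold), and IGFBP6 (1.52-fold) and GDF15 were the others past 1.5-fold, with a median of 0.17. Haem oxygenase (HMOX1, 1.66-fold) stood alone past 1.5-fold among 9 NRF2 targets (median 0.10), NDRG1 (1.78-fold) among 12 hypoxia genes (0.06), ICAM1 (1.60-fold) among 10 NF-κB targets (0.17) and IDI1 (1.58-fold) among 19 sterol genes (0.17). The sialidase gene NEU1 (1.80-fold) was the only one of 16 lysosome and autophagy genes (0.12), and ATF3 the only one of 13 genes of the integrated stress and unfolded protein responses (-0.04). Of 8 interferon-related genes HERC5 (242 with hydroxyurea and 132 in untreated cells, 1.83-fold) passed 1.5-fold, and all 8 lay above 0 with a median of 0.42, which was 0.23 over 20 genes without the filter. MICA and MICB, ligands of the natural killer cell receptor NKG2D that genotoxic stress is known to induce, were at 1.69-fold and 1.83-fold, with 921 and 1311 with hydroxyurea and 544 and 716 in untreated cells. They were the only members past 1.5-fold among 7 genes of the antigen presentation list (median 0.19). Past the filter that list held mostly NKG2D ligand genes, with B2M and TAPBP as the others. The further NKG2D ligand genes ULBP1, ULBP2 and ULBP3 were at 0.916-fold, 0.995-fold and 1.14-fold.

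Genes tied to the colonic origin of the cells also differed in part. Of 12 Wnt and crypt stem cell genes, 4 were at least 1.5-fold higher and 1 lower, with a median of 0.22. The Wnt targets AXIN2 (1.51-fold) and NKD1 (1.60-fold), the receptor gene EPHB3 (1.61-fold) and MYB (1.58-fold) were higher, SOX4 was the lower one, and SOX9 was at 1.04-fold. Of 7 differentiation genes (median 0.14), CA2 and FXYD3, a regulator of the sodium pump, were at least 1.5-fold higher. FXYD3 had 291 with hydroxyurea and 124 in untreated cells (2.35-fold). Among 12 genes of the epithelial and mesenchymal states (median 0.12), SNAI2, THBS1 and FN1 (1.53-fold), all mesenchymal, were at least 1.5-fold higher, but the mesenchymal gene S100A4 was at 0.878-fold and VIM, TWIST1, ZEB1 and ZEB2, which lay below the filter, were at 0.754-fold, 0.864-fold, 0.972-fold and 0.860-fold. These 5 were named after their values were seen. Of the epithelial genes EPCAM was at 0.963-fold and CLDN4 at 1.15-fold. CCN2, a YAP target, had 129.6 with hydroxyurea and 62.8 in untreated cells (2.06-fold), and FHL2 was 1.62-fold higher, in a list of 13 YAP and SRF targets with a median of 0.22.

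Housekeeping groups lay close to no change. The median was -0.08 over 20 ribosome biogenesis genes, -0.02 over 71 genes of the mitochondrial ribosome, 0.02 over 25 of the respiratory chain, -0.05 over 48 with RPL or RPS symbols, -0.04 over 8 heat shock genes and 0.01 over 9 polyamine genes. In these lists together only COX8A (1.58-fold) and RPS27L were at least 1.5-fold higher and MRPS34 (1.52 times) lower. The list of histone deacetylases and their partner SIN3A had 0 of 11 genes past 1.5-fold and a median of -0.05, with HDAC4 lowest at 87.2 with hydroxyurea and 129 in untreated cells (1.48 times lower).

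Most of the protein-coding genes at least 1.5-fold lower were long. This property was looked at after their values were seen, with the span of each gene, introns included, from RefSeq (GRCh38.p14). Of the 15 lowest genes, 7 spanned more than 100 kb, among them SBF2 (526 kb), DPH6 (401 kb) and MED13L (319 kb), whereas 0 of the 15 highest did. Among 7096 protein-coding genes past the filter the median span was 30.5 kb. It was 193 kb for the 81 that were at least 1.5-fold lower and 20.2 kb for the 226 that were at least 1.5-fold higher. Genes over 100 kb were 58 of the 81 lower genes (71.6%), 11 of the 226 higher genes (4.87%) and 17.7% of all.

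The median log2 ratio was 0.06 to 0.07 in the bins up to 20 kb, 0.05 from 20 to 50 kb, close to 0 from 50 to 100 kb, -0.13 from 100 to 200 kb and -0.23 over 200 kb. Of the 450 genes over 200 kb, 39 (8.67%) were at least 1.5-fold lower, 0 were at least 1.5-fold higher and 78% had a ratio below 0. Spearman's rho across the 7096 genes was -0.28, as a description of these arrays, since genes are not independent replicates. The median intensity was 214 over 200 kb, 284.5 from 100 to 200 kb and 199 up to 5 kb. When the genes were divided by intensity into 3 equal groups, the median over 200 kb was -0.14 in the dimmest, -0.27 in the middle and -0.28 in the brightest group. Between MS-275/hydroxyurea and MS-275 cells the median over 200 kb was -0.10, with 17 genes at least 1.5-fold lower and 8 higher, and rho over all spans was 0.02. Long members were also the lowest of several lists, such as ATRX (281 kb, 1.39 times lower) among the histone chaperone genes and HDAC4 (354 kb) among the histone deacetylases. Not all lower genes were long. Among the short ones were SOX4 (4.87 kb), GPR52 (1.58 kb), PRR4 (3.63 kb) and MRPS34 (1.24 kb).

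**Figure D5:**
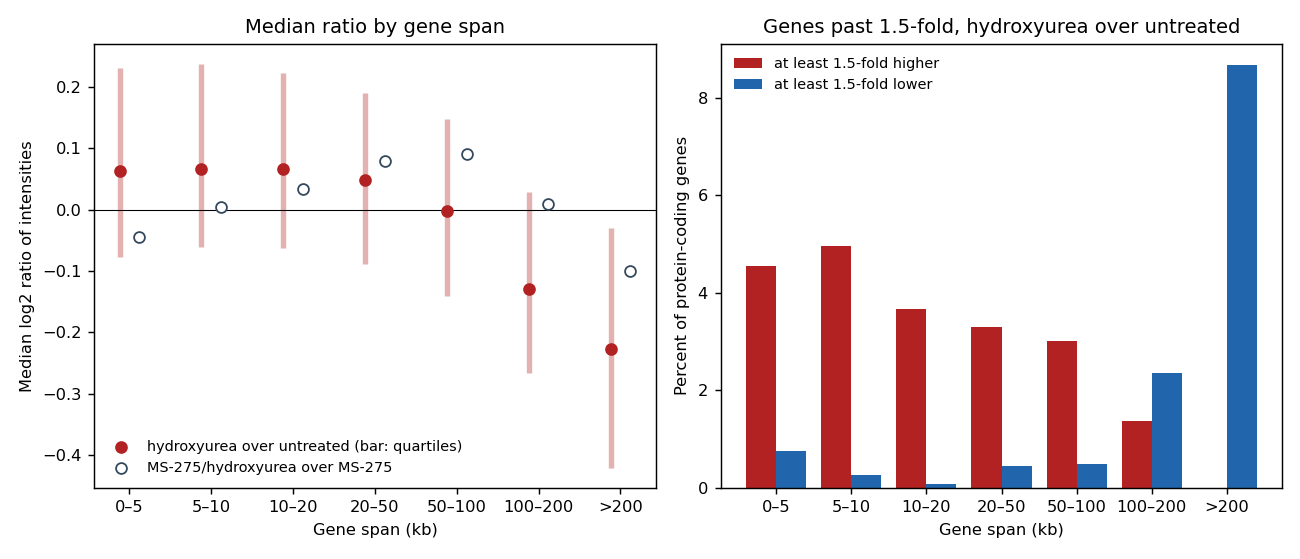
Left, median log2 ratio of intensities by gene span in kb for 7096 protein-coding genes, hydroxyurea over untreated (filled, bars from the first to the last quartile) and MS-275/hydroxyurea over MS-275 (open). Right, percent of genes in each bin at least 1.5-fold higher or lower with hydroxyurea. Over 200 kb the median is -0.23 and 8.67% of genes are lower, with none higher.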

How the data were processed

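HCT116 RNA was measured on GeneChip Human Gene 2.0 ST arrays, 1 for each of 4 conditions. The authors summarised the signals by RMA and deposited 1 intensity per transcript cluster, on a linear scale, as the range from 1.92 to 17815 shows. The release of RMA was not given in the sources used here. Gene symbols came from the probe table of the platform, all 16098 of them matched current gene records, and 37519 clusters stayed unnamed. For the 779 genes with several clusters the cluster with the highest mean log2 value was kept. Genes whose mean fell under the median of the named clusters were set aside. Python 3.11.15 was used with pandas 2.3.3, numpy 2.4.6 and matplotlib 3.10.9, and the steps were tested on simulated arrays.

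The comparison and the gene lists were chosen with earlier results of these data known. Genes named are the 15 highest and 15 lowest, without small RNAs, antisense (-AS) and intronic (-IT) transcripts, LOC, LINC, orf and FAM symbols, keratin-associated proteins and olfactory receptors. All members of the p53 and dNTP lists could be named, from other lists up to 5 with the largest ratios and up to 2 nearest to no change, and CHEK1, RAD50 and TP53BP1. The alternatives were no filter, a filter at the 75th percentile or over the hydroxyurea and untreated arrays only, averaging of clusters, centring of arrays, renewed quantile normalization, 32 added to each intensity, and 2-fold in place of 1.5-fold.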

Additional observations from a re-analysis of the deposited data

Results flagged for a closer look

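One gene past the filter went past 1.5-fold in opposite directions without and with MS-275. MIR891A, chosen for this after its values were seen, had 172 with hydroxyurea and 283 in untreated cells, a log2 ratio of -0.72, and 209 in MS-275/hydroxyurea and 124 in MS-275 cells, a log2 ratio of 0.75. The difference was not tested, since each condition has 1 array.

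Transcript clusters with no gene name here, which entered no comparison above, also differed between the arrays. Of 9228 unnamed clusters with a mean at or above the intensity of 90.5, 313 (3.39%) were at least 1.5-fold higher and 268 (2.9%) at least 1.5-fold lower with hydroxyurea than in untreated cells, with a median log2 ratio of -0.01.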

How the results depend on the processing

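With the 239 higher and 97 lower genes of the main setting as the base, there were 467 higher and 306 lower without the filter on dim genes, 109 and 43 under a stricter filter (75th percentile), 149 and 55 with 32 added to each intensity, and 43 and 5 at 2-fold. The share of higher genes among both was 71.1%, and 60.4% without the filter, 89.6% at 2-fold and 78.6% with each array centred, which gave 275 higher and 75 lower. The median of the p53 arrest list was 0.72 with 32 added, and that of the third p53 list was 0.38 without the filter and 0.35 under the stricter one. For the fork checkpoint list with MS-275 present the median was 0.32 in the main setting, 0.16 under the stricter filter and 0.20 when clusters were averaged. At 2-fold the number of higher genes was 3 for p53 arrest, 2 for p53 apoptosis, 1 for G1/S and 0 for the third p53 list, dNTP synthesis, helicase loading, replisome, homologous recombination and G2/M. Under the stricter filter it was 2 for p53 apoptosis, 3 for the third p53 list and 2 for homologous recombination, which also had 2 under quantile normalization and with 32 added. The helicase loading count rested on CDC6, which lay at the border, and was 2 with each array centred, 0 under quantile normalization and 0 with 32 added. The replisome had 3 higher genes with each array centred. Of the genes over 200 kb, 39 were lower in the main setting, 21 under the stricter filter, 24 with 32 added and 2 at 2-fold, while their median moved by less than 0.1. The stricter filter also gave medians of 0.48 for antigen presentation, 0.41 for MAPK feedback, 0.34 for growth factors and 0.12 for YAP and SRF targets. Fewer genes enter under that filter, and 32 added compresses ratios by construction. Otherwise the causes were not tested. Of 92 named genes past 1.5-fold, from the lists, both extremes and the miRNAs, all 92 kept their direction in the settings other than 2-fold, and 75 stayed past 1.5-fold with 32 added. Neither a filter nor 32 added can reverse a direction, so only averaging, centring and quantile normalization could have done so. No list median moved across 0 with both values at least 0.1 from it, but medians nearer to 0 crossed it, such as that of the polyamine list, at 0.01 and, without the filter, -0.02. The results by gene span, by motif and with MS-275 present were added after the data were seen. No paired analysis was possible because each condition has 1 array. Near the background, ratios are compressed, so folds of dim genes are uncertain.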
